A study of Rattus norvegicus with 6 samples.

Results

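Potassium channel genes other than those of the two-pore family were described across 6 Affymetrix arrays of rat carotid body neurospheres, floating cell clusters grown from the oxygen-sensing organ at the carotid artery fork. The members are all genes with a symbol that starts with Kcn but not with Kcnk in the platform's probe table, taken from probe sets with exactly 1 symbol. This gave 72 of the 14506 genes measured. The RefSeq rat gene table lists 81 such protein-coding genes. The others were not analysed here. Where a gene had more than 1 probe set, the one with the highest mean over the 6 arrays was kept, which concerned Kcnip1 and Kcnip2.

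The 3 arrays labelled differentiated came from spheres kept without mitogens at 3% oxygen. The 3 arrays labelled undifferentiated came from spheres given FGF, IGF-1, EGF and ET-1 in normoxia. All were cultured for 10 days from dispersed cells of adult rats in neural crest medium, and no genotype or strain is given in the labels. Mitogens and oxygen changed together, so their parts cannot be told apart. The study compared spheres enriched for neuronal cells with spheres enriched for undifferentiated cells. Nothing in the labels states that the 3 arrays per group stem from different cultures or animals. The p-values therefore cover the variation among these 6 arrays, which could be technical in origin.

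Markers of the labelled cell states were checked before the channels. Of 11 measured markers of glomus cells, the catecholamine-making oxygen sensors of the carotid body, 11 fell and 0 rose in the arrays labelled differentiated (limma adjusted p under 0.05; 0 higher at an unadjusted p under 0.05 and by an unmoderated test). Their mean log2 level ran from 7.34 to 7.89 over the arrays labelled differentiated and from 10.64 to 10.76 over those labelled undifferentiated. This goes against the labels, so groups are called by their labels throughout. An exchange of the labels between the groups is possible and was not tested. If they were exchanged, every rise, fall and signed change given here would turn round, with its size and p-value unchanged. All 8 mesenchymal markers and all 6 markers of dividing cells were higher in the arrays labelled differentiated, with mean levels of 10.85 to 10.96 and 7.09 to 7.31 there, against 9.29 to 9.51 and 5.63 to 6.02 in the arrays labelled undifferentiated. Of 6 glial markers 2 were higher and 0 lower (limma; 0 lower at an unadjusted p under 0.05, and 0 in either direction by the unmoderated test). Of 7 endothelial markers 0 were higher and 2 lower (limma; 0 higher at an unadjusted p under 0.05 and by the unmoderated test), and of 8 macrophage markers 2 were higher and 2 lower. Of 10 neuronal markers 2 were higher and 3 lower. In RNA of whole spheres, fewer cells of a type and less RNA per cell cannot be told apart, and the part of these cell type markers in the channel results was not tested.

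Potassium channels let potassium leave or enter cells along its gradient and so set the resting potential and the length and rate of electrical discharges. Glomus cells of the rat carotid body are known for potassium currents that shrink when oxygen falls, among them the large-conductance calcium-activated BK current. The shrinking of these currents depolarises the cell and starts transmitter release. Pore-forming subunits build the channel, modifier subunits join the pore of other voltage-gated subunits without forming channels alone, and accessory subunits change gating or traffic. Calcium-activated channels open when calcium rises inside the cell, and inward rectifiers pass current best near or below the resting potential.

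The start-site windows of 3 members are shown because Kcnn3 had the largest fall of all members, Kcnj2 the largest rise, and Kcnj16 is the neighbouring gene of Kcnj2 and also rose. Each window covers 250 bases before to 50 bases after the RefSeq start site on GRCr8 and lies on the plus strand, Kcnn3 at chr2:177234090-177234389, Kcnj2 at chr10:96559975-96560274 and Kcnj16 at chr10:96517074-96517373. Capitals mark CCAAT and ACGTG, each read on both strands.
Kcnn3: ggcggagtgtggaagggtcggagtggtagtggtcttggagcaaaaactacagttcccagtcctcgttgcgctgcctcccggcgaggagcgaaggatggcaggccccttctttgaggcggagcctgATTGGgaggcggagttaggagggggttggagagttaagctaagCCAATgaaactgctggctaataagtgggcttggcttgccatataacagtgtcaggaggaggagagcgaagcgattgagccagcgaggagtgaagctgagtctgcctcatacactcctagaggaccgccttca
Kcnj2: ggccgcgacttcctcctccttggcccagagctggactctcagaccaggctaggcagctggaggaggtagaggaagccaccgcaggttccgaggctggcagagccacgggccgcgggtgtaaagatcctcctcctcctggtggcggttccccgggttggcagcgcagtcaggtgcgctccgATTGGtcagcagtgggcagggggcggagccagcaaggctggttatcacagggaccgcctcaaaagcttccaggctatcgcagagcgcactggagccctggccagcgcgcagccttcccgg
Kcnj16: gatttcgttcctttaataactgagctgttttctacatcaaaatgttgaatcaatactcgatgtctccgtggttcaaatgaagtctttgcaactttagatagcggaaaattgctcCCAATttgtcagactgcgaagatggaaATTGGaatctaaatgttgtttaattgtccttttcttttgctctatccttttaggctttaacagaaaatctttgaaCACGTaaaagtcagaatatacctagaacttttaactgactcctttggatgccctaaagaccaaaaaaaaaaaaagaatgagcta

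CCAAT, the box bound by NF-Y, occurred 2 times in the Kcnn3 window, 1 time in that of Kcnj2 and 2 times in that of Kcnj16, and 37.5% of the 33469 windows of this length in the table held it. ACGTG, the core bound by hypoxia-inducible factors, was searched because oxygen differed between the groups. It was in the Kcnj16 window 1 time and was absent from the other 2 windows, and 19.3% of all windows held it. CAGCACC, a part of the site bound by the repressor encoded by Rest, was in none of the 3, against 6.78% of all windows. Of the 54 members with a window, 18 held CCAAT, 7 held ACGTG and 5 held CAGCACC, and of the 11 called members with a window 6, 1 and 0 did. Here a gene was counted if any of its windows held the letters. The percentages are shares of the 33469 windows, which came from 27457 genes, so the units differ. A match describes the letters of the window, and nothing about binding was measured.

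Of the 72 members, 6 rose and 11 fell in the arrays labelled differentiated (limma, Benjamini-Hochberg adjusted p under 0.05 over all genes). That is 23.6% of the members, against 29.5% of all 14506 genes. The members called higher made up 8.33%, against 14.7% of all genes, and those called lower 15.3%, against 14.9%. With the labels exchanged, 15.3% of the members would be higher, against 14.9% of all genes, and 8.33% lower, against 14.7%. The 3 arrays of a group lay wholly above or below the other 3 in 31.9% of the members and in 42.3% of all genes. Of the 72 members, 42 had a mean above the 40th percentile over all probe sets, and all 11 members called lower were among them. Of these 42, 7.14% were called higher and 26.2% lower, against 19.5% and 20.5% of the 10160 genes above that level. The share of members called higher was thus below that of all genes in both counts, while the share called lower was near it over all members and above it among the brighter ones, and neither difference was tested. Their median log2 change was 0.07, against 0.06 over all genes, and 48 of the 72 differed by less than 0.3 on the log2 scale.

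Of the 17 called members, 15 encode pore-forming subunits and 2 accessory subunits. Of the 46 pore-forming members 6 were higher and 9 lower, while of the 26 modifier and accessory members 0 were higher and 2 lower (limma; 1 higher at an unadjusted p under 0.05 and 0 by the unmoderated test). The difference between these 2 shares was not tested. Over all genes, 14.7% were called higher and 14.9% lower, and neither class was tested against these shares. The 2 classes can also differ in brightness, and its part in these counts was not tested. A log2 change of at least 1 with a call was reached by 4 members (5.56%), against 8.00% of all genes. Those 4 were Kcnn3, Kcnh2 and Kcnj11, which fell, and Kcnj2, which rose.

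**Figure D1:**
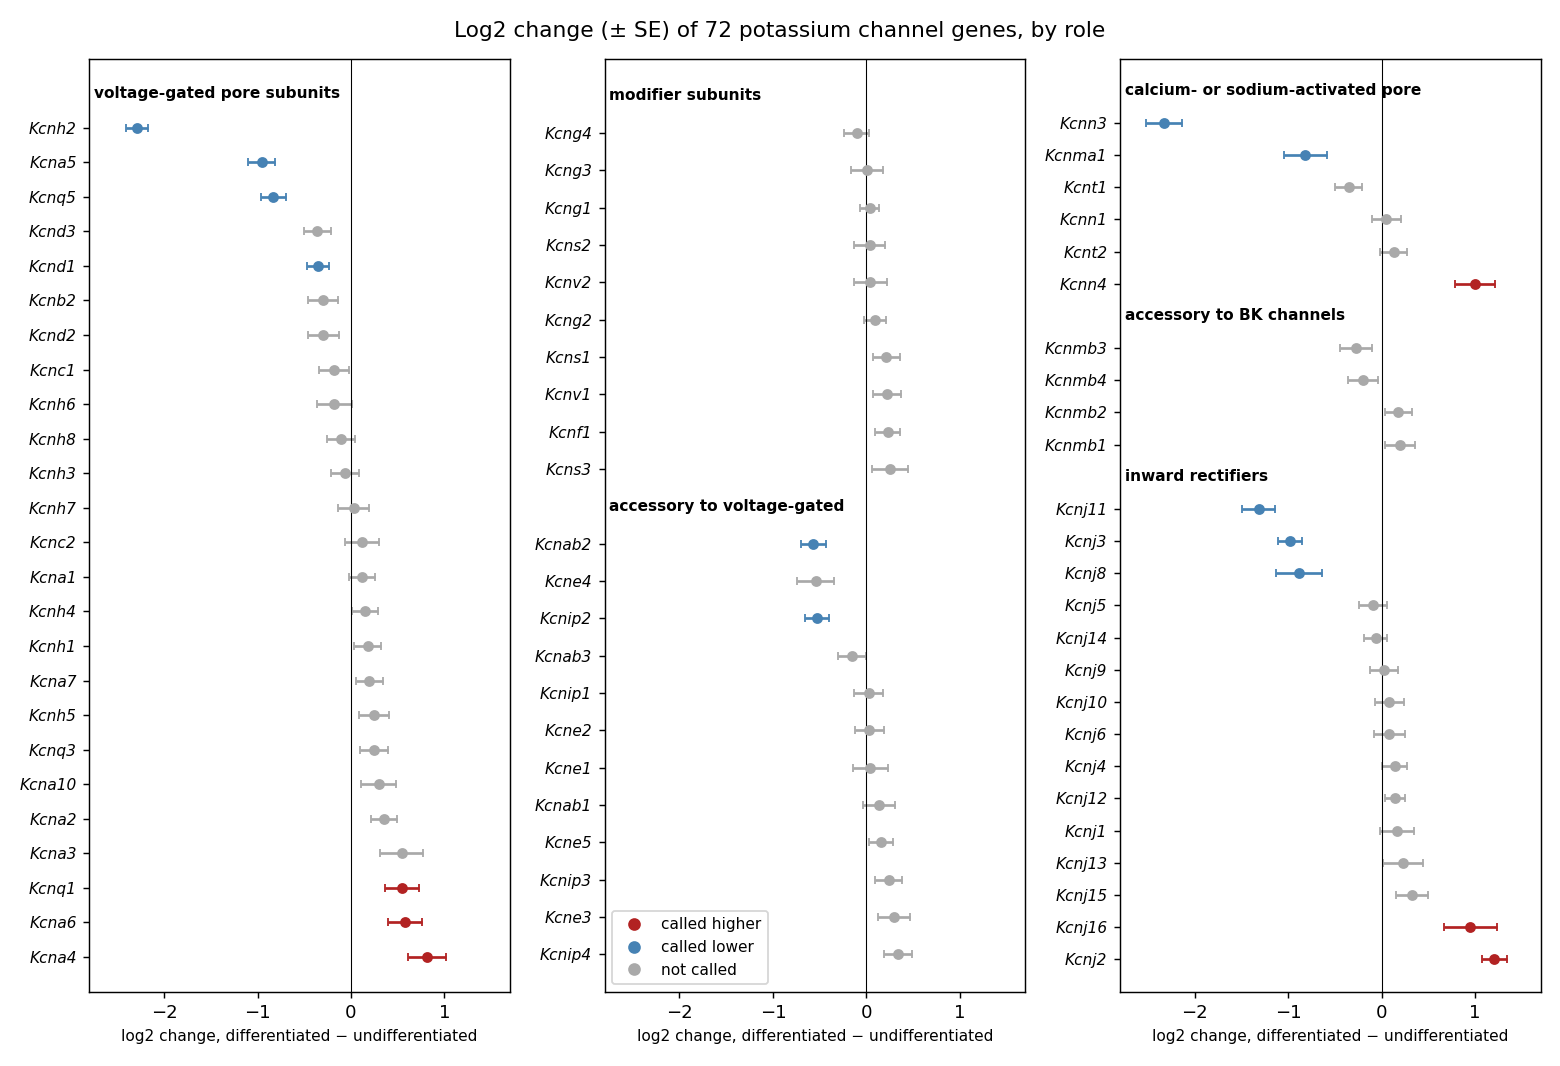
Log2 change (x axis, labelled differentiated minus labelled undifferentiated, bars are the SE of the limma fit) of each of the 72 members, grouped by role; red members were called higher, blue ones lower and grey ones not called. Kcnh2 and Kcnn3 stand at -2.29 and -2.33, far left of the other members of their roles, and the 10 modifier subunits all lie between -0.10 and 0.26.

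**Figure D2:**
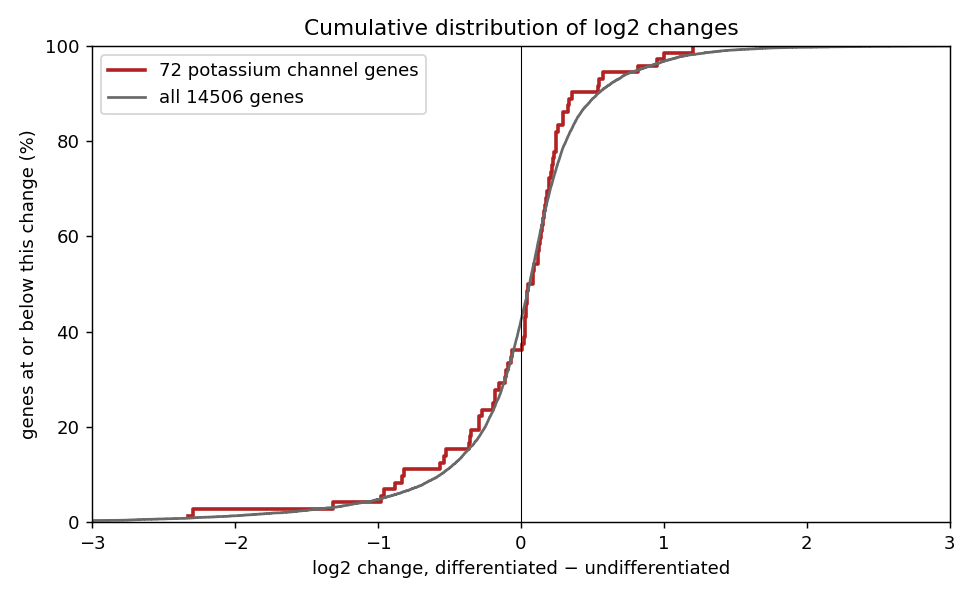
Share of genes in percent (y axis) at or below each log2 change (x axis, labelled differentiated minus labelled undifferentiated, cut at -3 and 3) for the 72 members in red and all 14506 genes in grey. The curves run close together, with medians of 0.07 and 0.06.

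Calcium-activated channels held the largest fall. Kcnn3, a small-conductance channel gated by calcium through calmodulin, had log2 values of 6.26, 6.85 and 6.21 in the arrays labelled differentiated and 8.42, 9.05 and 8.85 in the arrays labelled undifferentiated. Every array labelled differentiated lay more than 1 log2 unit below every array labelled undifferentiated. Kcnn3 fell by 2.33 ± 0.19 (SE), or 5.03-fold (limma adjusted p = 4.73e-06), and its change stayed between -2.54 and -2.19 when each array was left out.

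Kcnn4, the intermediate-conductance channel of the same family and known from dividing cells and leukocytes, went the other way. Its log2 values were 6.29, 7.09 and 6.24 in the arrays labelled differentiated and 5.77, 5.53 and 5.33 in the arrays labelled undifferentiated, with differentiated replicate 2 standing above the rest. It rose by 1.00 ± 0.21 (SE, limma adjusted p = 0.0041), and by 0.72 to 1.15 when each array was left out, the lowest value being without differentiated replicate 2. The mean level of 8 macrophage and leukocyte markers was also highest in that array, at 7.68, against 7.04 and 7.00 in the others labelled differentiated and 6.91 to 7.49 in those labelled undifferentiated. Tyrobp, an adaptor of myeloid receptors, stood at 9.16 there, against 8.04 and 8.05 in the others labelled differentiated. Of these 8 markers, Tyrobp and Cd14 were called higher in the arrays labelled differentiated, and Cd74 and Cd163 were called lower. Cd74 averaged 5.73 in the arrays labelled differentiated and 8.36 in those labelled undifferentiated. All 6 markers of dividing cells were higher in the arrays labelled differentiated. The part of these markers in the Kcnn4 result was not tested. Kcnn1, another small-conductance channel, averaged 6.32 ± 0.19 in the arrays labelled differentiated and 6.27 ± 0.27 in the arrays labelled undifferentiated (SD, n = 3 each; change 0.05 ± 0.15 SE, limma adjusted p = 0.853). The 3 measured members of this subfamily were thus 1 higher, 1 lower and 1 not called.

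Kcnma1, the pore of the BK channel, had log2 values of 6.65, 6.08 and 6.88 in the arrays labelled differentiated and 7.55, 7.64 and 6.87 in the arrays labelled undifferentiated. The groups overlapped, since undifferentiated replicate 3 lay just below differentiated replicate 3. Kcnma1 fell by 0.82 ± 0.23 (SE, limma adjusted p = 0.0184). The call was lost when differentiated replicate 2 was left out (adjusted p = 0.0509, change -0.59), and likewise for undifferentiated replicate 1 (adjusted p = 0.0673) or 2 (adjusted p = 0.0859). The fall was thus called with all 6 arrays but not without any of these 3.

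The beta subunits of the BK channel, which set its calcium sensitivity and inactivation, gave no call: of 4 measured, 0 were higher and 0 lower, with 0 at an unadjusted p under 0.05 by limma and 0 by the unmoderated test. Kcnmb1 read 3.92, 3.69 and 4.02 in the arrays labelled differentiated and 3.47, 3.88 and 3.70 in those labelled undifferentiated (change 0.20 ± 0.16 SE). Kcnmb2 read 2.70, 2.77 and 2.95 in the arrays labelled differentiated and 2.69, 2.70 and 2.50 in those labelled undifferentiated (change 0.18 ± 0.15). Kcnmb4, the beta subunit known from neurons, read 4.22, 4.23 and 4.47 in the arrays labelled differentiated and 4.78, 4.35 and 4.37 in those labelled undifferentiated (change -0.20 ± 0.16). These 3 probe sets were dim, with means under 4.44, the 40th percentile over all probe sets, and how far they stood above background is unknown. The sodium-activated pores Kcnt1 and Kcnt2 differed by -0.35 ± 0.14 and 0.13 ± 0.15 (limma adjusted p = 0.0868 and 0.585).

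Among the 25 measured pore subunits of voltage-gated channels, 3 were higher and 4 lower. Of all genes, 14.7% were called higher and 14.9% lower, and the class was not tested against these shares. Kcnh2, the ERG channel that repolarises heart muscle and is also expressed in excitable endocrine cells, had the second-largest fall of all members. Its log2 values were 5.38, 5.44 and 5.54 in the arrays labelled differentiated and 7.69, 7.61 and 7.94 in the arrays labelled undifferentiated. The 3 arrays within each group stood close together and the groups were far apart. Kcnh2 fell by 2.29 ± 0.12 (SE), or 4.90-fold (limma adjusted p = 1.57e-07). The other 7 measured genes of the Kcnh subfamily had changes between -0.18 and 0.25 and were not called.

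Kcna5, a delayed rectifier of the Shaker-related subfamily known from vascular muscle and heart, fell by 0.96 ± 0.14 (SE, limma adjusted p = 0.000387). Its log2 values were 4.47, 4.90 and 4.69 in the arrays labelled differentiated and 5.63, 5.72 and 5.57 in the arrays labelled undifferentiated, with no overlap. Kcnq5, a subunit of the M-type channels that muscarinic receptors close, read 5.69, 5.40 and 5.46 in the arrays labelled differentiated and 6.30, 6.54 and 6.21 in the arrays labelled undifferentiated. It fell by 0.83 ± 0.13 (limma adjusted p = 0.000609). Kcnq3, a subunit of the same kind of channel, was not called: it read 6.45, 5.92 and 6.16 in the arrays labelled differentiated and 5.79, 6.04 and 5.96 in those labelled undifferentiated (change 0.25 ± 0.15, adjusted p = 0.257). Kcnq5 and Kcnq3 therefore differed in call, though the difference between them was not tested.

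The Kcnd genes encode fast-inactivating A-type channels, and all 3 had negative changes of similar size. Kcnd1 read 5.48, 5.71 and 5.58 in the arrays labelled differentiated and 5.99, 5.91 and 5.93 in the arrays labelled undifferentiated, and fell by 0.35 ± 0.12 (SE, limma adjusted p = 0.0415). That call was close to the threshold and was lost in 5 of the 6 fits that left out 1 array, without differentiated replicates 1 and 3 (adjusted p = 0.124 and 0.0944) and without undifferentiated replicates 1, 2 and 3 (adjusted p = 0.129, 0.0714 and 0.0984). Kcnd3 read 6.10, 5.69 and 6.15 in the arrays labelled differentiated and 6.50, 6.24 and 6.29 in those labelled undifferentiated, without overlap (change -0.36 ± 0.14, adjusted p = 0.0886). Kcnd2 read 4.67, 4.16 and 4.49 in the arrays labelled differentiated and 4.79, 4.88 and 4.54 in those labelled undifferentiated, with overlap (change -0.30 ± 0.17, adjusted p = 0.229). The changes of Kcnd1 and Kcnd3 were thus close in size, and the call of the first came with the smaller SE.

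The voltage-gated pores that rose were Kcna4, Kcna6 and Kcnq1. Kcna4, an A-type channel of the Shaker-related subfamily, read 4.52, 5.09 and 5.16 in the arrays labelled differentiated and 3.85, 4.41 and 4.06 in the arrays labelled undifferentiated. The groups did not overlap, and Kcna4 rose by 0.82 ± 0.20 (SE, limma adjusted p = 0.00987). For this gene the arrays labelled undifferentiated all read under 4.44, the 40th percentile over all probe sets. Kcna6, a delayed rectifier, read 3.42, 3.64 and 3.18 in the arrays labelled differentiated and 2.55, 2.93 and 3.03 in those labelled undifferentiated (rise of 0.58 ± 0.18, adjusted p = 0.0313). Its call was lost when differentiated replicate 1 or 2 was left out (adjusted p = 0.0746 and 0.0956) and likewise for undifferentiated replicate 1 or 2 (adjusted p = 0.133 and 0.055). Kcnq1, the cardiac and epithelial channel that pairs with Kcne subunits, read 4.14, 4.71 and 4.65 in the arrays labelled differentiated and 3.92, 4.12 and 3.82 in those labelled undifferentiated. It rose by 0.55 ± 0.18 (adjusted p = 0.038), a call lost when differentiated replicate 2 or 3 was left out (adjusted p = 0.115 and 0.123) and likewise for undifferentiated replicate 1 or 3 (adjusted p = 0.0997 and 0.133). Kcna6 and Kcnq1 had means under the 40th percentile over all probe sets, so their height above background is unknown.

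Among the other Shaker-related genes, Kcna2 read 4.99, 5.11 and 4.90 in the arrays labelled differentiated and 4.55, 4.81 and 4.57 in those labelled undifferentiated. These groups did not overlap, but its change of 0.36 ± 0.14 (SE) gave a limma adjusted p of 0.0778, and 0.0499 without undifferentiated replicate 2. Kcna3, known from lymphocytes and microglia, was widely spread, at 6.43, 5.82 and 6.28 in the arrays labelled differentiated and 6.18, 5.51 and 5.22 in those labelled undifferentiated (change 0.54 ± 0.23, adjusted p = 0.109). Without differentiated replicate 2 or undifferentiated replicate 1 it passed (adjusted p = 0.038 and 0.0103), while leaving out undifferentiated replicate 3 gave a change of 0.335 (adjusted p = 0.362) and leaving out differentiated replicate 1 gave 0.414 (adjusted p = 0.293). The other measured voltage-gated pores, Kcna1, Kcna7, Kcna10, Kcnb2, Kcnc1 and Kcnc2, had changes between -0.30 and 0.30 and were not called.

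Modifier subunits gave no call. Of 10 measured Kcnf, Kcng, Kcns and Kcnv genes, 0 were higher and 0 lower by limma, with 0 at an unadjusted p under 0.05 and 0 by the unmoderated test, and their changes ran between -0.10 and 0.26. The share of all genes called in either direction was 29.5%, and the class was not tested against it. Kcng1, for example, averaged 6.74 ± 0.07 in the arrays labelled differentiated and 6.71 ± 0.08 in those labelled undifferentiated (SD, n = 3 each), so that a difference of 0.03 ± 0.10 (SE) was found at a small spread.

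Of 12 measured accessory subunits of voltage-gated channels, 0 were higher and 2 lower (limma; 1 higher at an unadjusted p under 0.05 and 0 by the unmoderated test). The shares over all genes were 14.7% higher and 14.9% lower. Kcnab2, a cytoplasmic beta subunit with an oxidoreductase fold, read 5.14, 5.47 and 5.41 in the arrays labelled differentiated and 5.97, 5.96 and 5.79 in the arrays labelled undifferentiated. It fell by 0.57 ± 0.13 (SE, limma adjusted p = 0.007). Kcnip2, a calcium-binding partner of the Kcnd pores, read 4.54, 4.46 and 4.62 in the arrays labelled differentiated and 5.01, 5.09 and 5.10 in those labelled undifferentiated, and fell by 0.53 ± 0.13 (adjusted p = 0.00841). Both genes had groups without overlap. The other probe set of Kcnip2 was also lower in the arrays labelled differentiated, at 3.71, 3.95 and 3.89, against 4.80, 5.02 and 4.92 in those labelled undifferentiated, and with it in place of the first the gene's change was -1.06 (limma adjusted p = 0.000161). Its 2 probe sets thus gave 1 direction with unlike sizes, -0.53 and -1.06. In the other probe set the arrays labelled differentiated all read under 4.44, the 40th percentile over all probe sets.

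Kcnip3, a member of the same calcium-binding family that also acts as the transcriptional repressor DREAM, read 5.35, 5.56 and 5.77 in the arrays labelled differentiated and 5.29, 5.47 and 5.19 in those labelled undifferentiated (change 0.24 ± 0.14 SE, limma adjusted p = 0.256). Kcne4, a single-span subunit that inhibits several voltage-gated channels, averaged 5.84 ± 0.32 in the arrays labelled differentiated and 6.38 ± 0.36 in those labelled undifferentiated (SD, n = 3 each; change -0.54 ± 0.20 SE, adjusted p = 0.064). It passed when differentiated replicate 3 or undifferentiated replicate 1 was left out (adjusted p = 0.0207 and 0.0136) and with median centring (adjusted p = 0.0492), and its change ran from -0.74 to -0.40 over the 6 fits that left out 1 array. The other 4 Kcne genes had changes between 0.03 and 0.30 with no call.

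Of 15 measured inward rectifiers 2 were higher and 3 lower, where 14.7% of all genes were called higher and 14.9% lower. The class was not tested against these shares. Kcnj11 is the pore of the ATP-sensitive channel of pancreatic beta cells and neurons, which closes when ATP is plentiful. It read 4.73, 4.61 and 5.35 in the arrays labelled differentiated and 6.23, 6.25 and 6.16 in the arrays labelled undifferentiated. Differentiated replicate 3 was the highest of its group and still lay below all arrays labelled undifferentiated. Kcnj11 fell by 1.32 ± 0.18 (SE), or 2.49-fold (limma adjusted p = 0.000205).

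Kcnj8, the pore of the vascular ATP-sensitive channel known from pericytes and smooth muscle, read 6.47, 5.41 and 6.30 in the arrays labelled differentiated and 6.95, 6.66 and 7.22 in the arrays labelled undifferentiated. The groups did not overlap, and differentiated replicate 2 stood apart at the low end. Kcnj8 fell by 0.88 ± 0.24 (SE, limma adjusted p = 0.0175). The fall was 0.56 without differentiated replicate 2, and the call was lost without undifferentiated replicate 3 (adjusted p = 0.0774, change -0.74). Of 9 smooth muscle and pericyte markers 4 were higher and 1 lower. The lower one was Rgs5, a regulator of G protein signalling abundant in pericytes and, in mice, also in glomus cells, with a mean of 10.14 in the arrays labelled differentiated and 12.42 in those labelled undifferentiated, while Pdgfrb, a receptor of pericytes, rose by 1.01. The mean level of the 9 markers ran from 7.23 to 7.28 over the arrays labelled differentiated and from 7.02 to 7.06 over those labelled undifferentiated, and their part in the Kcnj8 result was not tested.

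Kcnj3, a subunit of the channels that G protein beta-gamma subunits open, read 5.44, 5.48 and 5.18 in the arrays labelled differentiated and 6.35, 6.21 and 6.47 in the arrays labelled undifferentiated. It fell by 0.98 ± 0.13 (SE, limma adjusted p = 0.000164) with no overlap. The other measured members of that G protein-gated kind, Kcnj5, Kcnj6 and Kcnj9, differed by -0.09, 0.08 and 0.02 and were not called. Kcnj3 can join Kcnj5, Kcnj6 or Kcnj9 in 1 channel, and it alone of these 4 was called.

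Kcnj2, a strong inward rectifier that holds the resting potential of muscle and many other cells, read 6.54, 7.00 and 6.74 in the arrays labelled differentiated and 5.66, 5.54 and 5.46 in the arrays labelled undifferentiated. It rose by 1.21 ± 0.14 (SE), or 2.31-fold (limma adjusted p = 5.21e-05), the largest rise among the members. Kcnj16, which forms channels with Kcnj10, read 3.96, 3.22 and 4.59 in the arrays labelled differentiated and 2.72, 3.19 and 3.01 in those labelled undifferentiated. The arrays labelled differentiated were widely spread, and replicate 2 there stood only just above undifferentiated replicate 2. The probe set had a mean under 4.44 and its height above background is unknown. Kcnj16 rose by 0.95 ± 0.29 (adjusted p = 0.0278). The call was lost without differentiated replicate 1 (adjusted p = 0.0756), differentiated replicate 3 (adjusted p = 0.0922, change 0.62), undifferentiated replicate 1 (adjusted p = 0.096) and undifferentiated replicate 3 (adjusted p = 0.0684). Its partner Kcnj10, known from glia, read 4.87, 4.59 and 4.44 in the arrays labelled differentiated and 4.67, 4.59 and 4.40 in those labelled undifferentiated (change 0.08 ± 0.15, adjusted p = 0.748). Kcnj12, a strong rectifier like Kcnj2, differed by 0.15 ± 0.11 (adjusted p = 0.356).

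**Figure D3:**
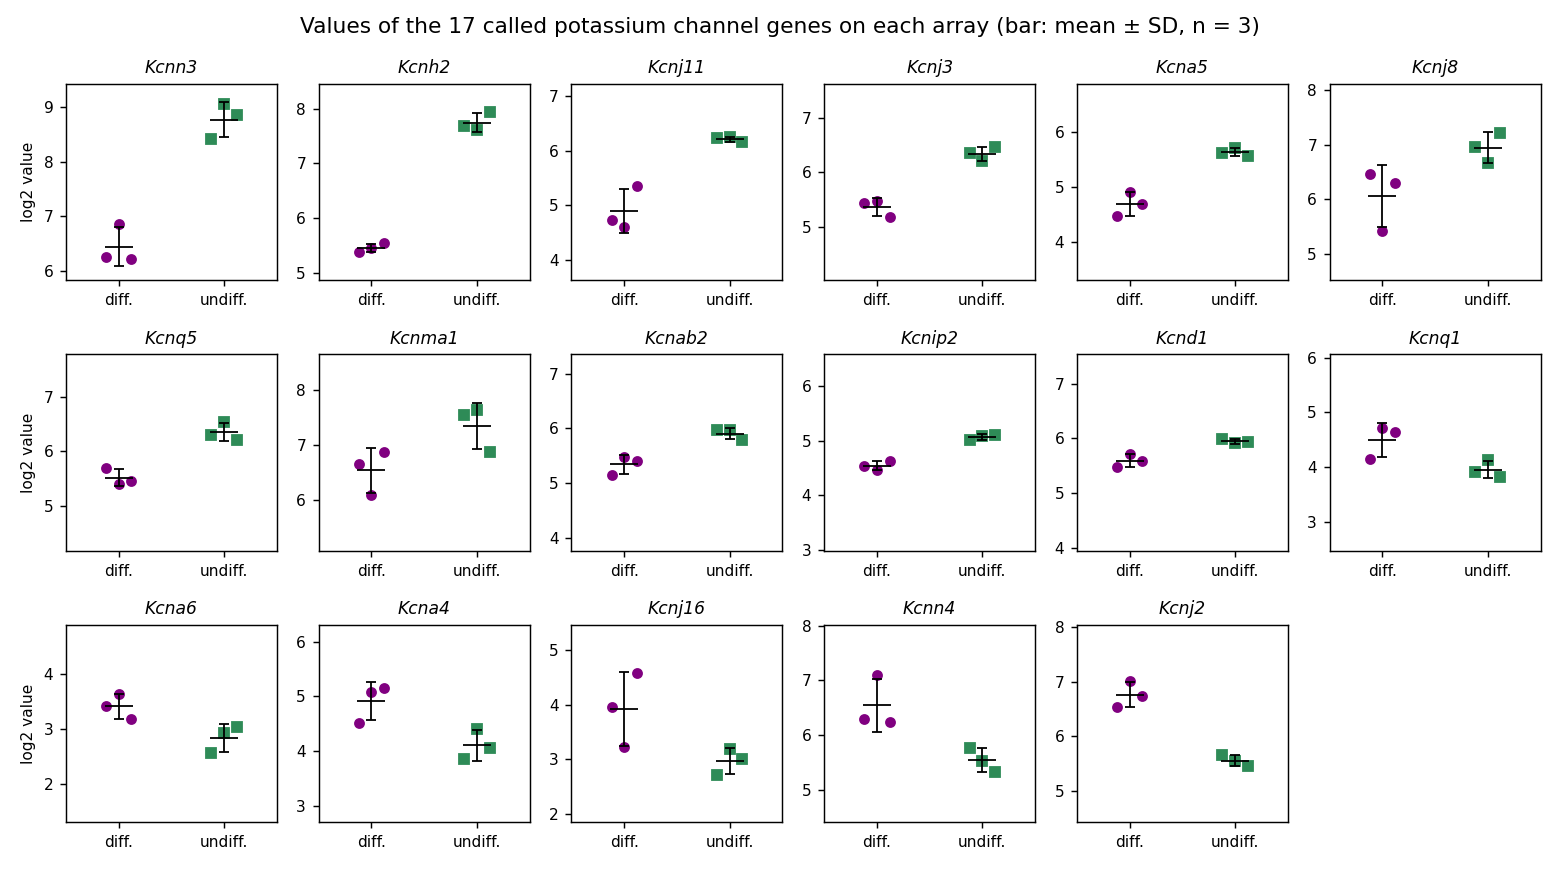
Log2 values (y axis, each panel spanning the same range) of the 17 called members, with the 3 arrays labelled differentiated as purple circles on the left and the 3 labelled undifferentiated as green squares on the right of each panel; the bars give mean ± SD (n = 3). In 16 of the 17 panels the groups do not overlap, and Kcnma1 is the exception. The panels were chosen by the call on these same values. Over all members the groups did not overlap in 31.9%, against 42.3% of all genes.

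Some members lie next to each other in the order of protein-coding genes on GRCr8. Kcnj16 and Kcnj2, neighbours on chromosome 10, both rose. On chromosome 2 Kcna3, Kcna2 and Kcna10 are consecutive and had changes of 0.54, 0.36 and 0.30, none of which passed in the fit of 6 arrays. On chromosome 4 Kcna5, Kcna1 and Kcna6 are consecutive, and there Kcna5 fell, Kcna1 changed by 0.12 without a call and Kcna6 rose. The changes had 1 sign at 2 of these places and both signs at the third. The other pairs of neighbouring members held no called gene.

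Partners and regulators of potassium channels that carry other symbols were described from a list of 48 genes, of which 38 were measured. Of these 38, 4 were higher (10.5%, against 14.7% of all genes) and 17 lower (44.7%, against 14.9%), with a median log2 change of -0.36 against 0.06 over all genes. The list was chosen with earlier results of these data known, so these shares describe the listed genes only. Their mean level was 6.11 in the arrays labelled differentiated and 6.46 in those labelled undifferentiated, against 5.75 in both over all genes. The difference in shares was not tested. Abcc8, the sulfonylurea receptor that assembles with Kcnj11, read 5.28, 4.83 and 5.15 in the arrays labelled differentiated and 6.60, 6.94 and 6.48 in the arrays labelled undifferentiated, and fell by 1.59 ± 0.16 (SE, limma adjusted p = 2.16e-05). Abcc9, the receptor that assembles with Kcnj8, read 7.75, 5.90 and 7.36 in the arrays labelled differentiated and 8.82, 7.93 and 8.65 in those labelled undifferentiated, and fell by 1.46 ± 0.39 (adjusted p = 0.0149). The change of Abcc9 was -0.91 without differentiated replicate 2 (adjusted p = 0.0102), and its call was lost without undifferentiated replicate 1 or 3 (adjusted p = 0.0547 and 0.0562). Both subunits of each ATP-sensitive channel were thus lower, and differentiated replicate 2 was the lowest array for Kcnj8 and Abcc9 alike. That was not particular to this pair. Among the members called lower, the lowest array labelled differentiated was replicate 2 in 5, replicate 1 in 4 and replicate 3 in 2. Among the members called higher, the highest was replicate 2 in 4 and replicate 3 in 2.

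Dpp6, an accessory subunit that speeds the Kcnd channels, averaged 4.70 ± 0.19 in the arrays labelled differentiated and 6.76 ± 0.29 in those labelled undifferentiated (SD, n = 3 each) and fell by 2.07 ± 0.16 (SE, limma adjusted p = 3.54e-06), while the related Dpp10 differed by 0.16. Lrrc55, a gamma subunit of the BK channel, fell by 1.06 ± 0.23 (adjusted p = 0.00479), and its relatives Lrrc26, Lrrc38 and Lrrc52 were not called. The calmodulin genes Calm2 and Calm3, which encode the calcium sensor of the Kcnn channels, fell by 1.01 and 0.95. The scaffold Dlg2, which clusters Shaker-related channels, fell by 1.83. Its relatives went both ways, since Dlg1 rose by 0.58 (limma adjusted p = 0.00429), Dlg4 fell by 0.37 (adjusted p = 0.0154) and Dlg3 was not called. The Dlg4 call was lost without differentiated replicate 3 or undifferentiated replicate 1 (limma adjusted p = 0.0629 and 0.0596). Amigo1, a partner of the Kcnb channels, fell by 0.94. Among the 4 that rose were Cav1, the membrane scaffold caveolin, at 2.15 and Rest, the repressor of neuronal genes, at 1.03 ± 0.12 (adjusted p = 5.41e-05). Rest read 7.55, 7.52 and 7.73 in the arrays labelled differentiated and 6.66, 6.38 and 6.67 in those labelled undifferentiated. Of 11 measured two-pore Kcnk genes, limma called 0 higher (0%, against 14.7% of all genes) and 3 lower (27.3%, against 14.9%). At an unadjusted p under 0.05 by limma 2 were higher, and by the unmoderated test 0 were. The lower ones were Kcnk9 at -2.71, Kcnk3 at -2.24 and Kcnk2 at -0.87, and the difference in shares was not tested.

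The direction of all 17 called members was the same in each of the 6 fits that left out 1 array. The calls of 11 of them (Kcnn3, Kcnh2, Kcnj11, Kcnj3, Kcna5, Kcnq5, Kcnab2, Kcnip2, Kcna4, Kcnn4 and Kcnj2) were kept in all 6. An unmoderated two-sample test with the same adjustment called 1 member higher and 9 lower, and did not call Kcna4, Kcna6, Kcnj8, Kcnj16, Kcnma1, Kcnn4 and Kcnq1.

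**Figure D4:**
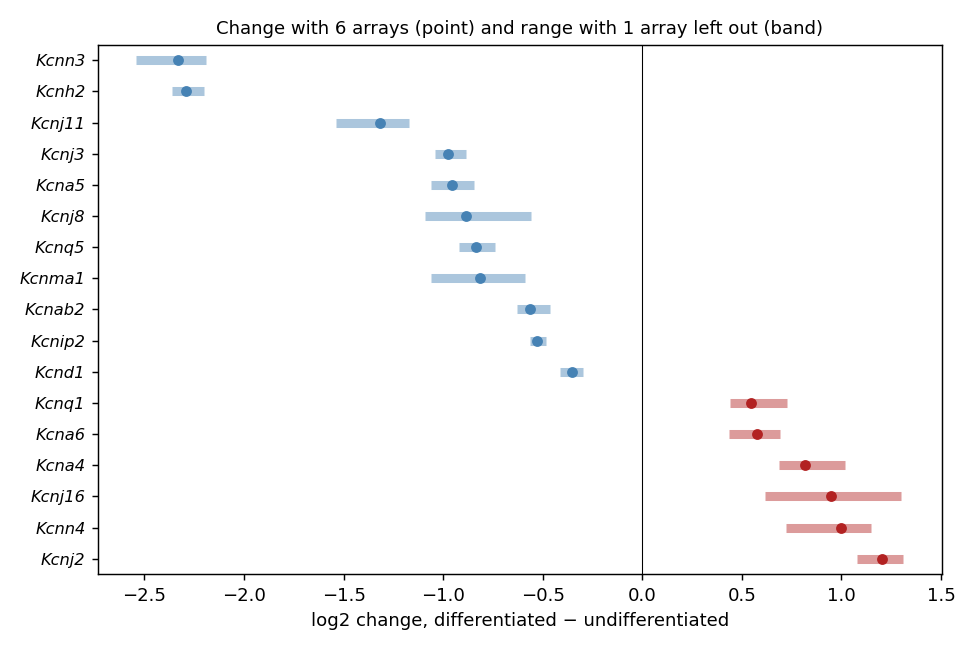
Log2 change (x axis, labelled differentiated minus labelled undifferentiated) of the 17 called members in the fit of 6 arrays (points) and the range over the 6 fits that each left out 1 array (bands); blue members were called lower and red ones higher. The band of Kcnj8 runs from -1.09 to -0.56 and that of Kcnj16 from 0.62 to 1.30, and no band crosses 0.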

How the data were processed

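The log2 values were processed by the authors before they were deposited as 29214 probe sets on each array. The base of the logarithm was inferred here from the range; background correction, normalization and software: not given in the sources used here. Per the labels' protocols, biotin-labelled cRNA was made by the standard Affymetrix protocol. The height of probe sets above background is unknown, and the number of arrays limits the precision.

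Gene names came from the probe table of the platform, which gave exactly 1 symbol to 15310 probe sets, several symbols to 323, and did not list 13581. Gene IDs of all 72 members matched the RefSeq rat gene table (GRCr8) with unchanged symbols. No member's probe set shared its values with another probe set on all 6 arrays, but families with similar sequence can share signal. Array medians lay between 5.05 and 5.13, and arrays correlated (Pearson's r, all probe sets) at 0.9857 to 0.9927 within groups and at 0.959 to 0.9696 between them.

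The values entered limma 3.58.1 in R 4.3.3 (lmFit, eBayes with a mean-variance trend, two-sided, no block), labelled differentiated minus labelled undifferentiated, with Benjamini-Hochberg adjustment over 14506 genes at 0.05; the code was tested on simulated data. Values in every array are given for called members and for 20 members named by rule; the rule took called members with a change of at least 1 and a list of channels known from carotid body, vessel or neurons. The members and all lists were chosen with earlier results of these data known. Alternatives tried were a replicate block, quantile normalization, centring on array medians, a filter that dropped genes up to the 40th percentile over all probe sets, other choices of probe set, other moderation, array weights, an unmoderated test, a threshold of 0.01 and leaving out each array. Promoter windows came from RefSeq's GRCr8 tables. Plots used matplotlib 3.10.9 under Python 3.11.15.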

Additional observations from a re-analysis of the deposited data

How the results depend on the processing

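The count of members called higher, 6 in the fit reported, was 3 with dim genes left out (42 of the 72 members remained), 3 when all probe sets were tested, 3 at an adjusted p under 0.01 and 1 by the unmoderated test, which called 2740 genes of all 14506 in place of 4286. The count called lower stayed between 8 and 12, against 11. With 1 array left out, 4 to 6 members were called higher, 9 to 11 lower and 3545 to 4030 of all genes. Quantile normalization and median centring kept all 17 calls. With the replicate number as a block, 7 members were called higher and 11 lower: Kcnd1 lost its call (adjusted p = 0.0636), and Kcna3 and Kcne4 gained 1 (adjusted p = 0.0257 and 0.00765). Deviations of arrays with the same number correlated at 0.115, 0.124 and -0.00376, so the numbers were not taken to pair the arrays. No called member changed direction under any alternative run. Of the 20 members named by rule, over all alternatives, 25 values lost the call, 1 gained it and 330 kept their side of the threshold. Of the 30 members that the filter on dim genes removed, 3 were called, all higher (Kcna6, Kcnj16 and Kcnq1), and signal over background limits them.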
